A study of Mus musculus with 4 samples.

Results

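*Fam83e* lies on mouse chromosome 7 in a dense run of short genes, and 10 genes of this run were examined in the testes of *Ccnyl1*-/- and WT mice: *Fam83e* itself, *Ntn5*, *Bcat2*, *Spaca4*, *Rpl18*, *Sphk2*, *Dbp*, *Rasip1*, *Fut1* and *Tulp2*. *Fam83e* was chosen from its difference between the genotypes on these same arrays, and the other genes were chosen by their closeness to it with the array values known. The differences given here for all 10 are therefore a description, and the limma p-values beside them come from the fit across all probe sets and are no independent test. The platform annotation gave 12 probe sets to 9 of the 10 genes and none to *Rpl18* alone, out of 45037 probe sets and 18193 singly named genes in all. Of the 12 probe sets, 11 (8 genes) had a mean signal of at least 32 and entered the fit across all probe sets, while the 1 probe set of *Fut1* did not.

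The *Ccnyl1*-/- mice carried the KO-first allele tm1a (EUCOMM) Wtsi, in which LacZ sequence with a stop codon and polyA interrupts *Ccnyl1*, and were bred from heterozygous pairs. They were set against WT mice, and the labels give C57BL/6 as the strain and 2 months as the age of all. Total RNA of 2 testis samples per genotype, which the labels call biological replicates and which are taken here as 1 mouse each, was read on 1 Affymetrix Mouse Genome array per sample. There were thus 4 arrays, and so small a number limits the precision of every value below.

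The proteins of these genes have separate roles. FAM83 proteins share a domain that binds casein kinase 1 and anchors it at particular places in the cell. NTN5 belongs to the netrins, secreted guidance proteins related to laminin, and BCAT2 is the mitochondrial aminotransferase that begins the breakdown of leucine, isoleucine and valine. SPACA4 is a protein of the sperm acrosome, TULP2 a testis member of the Tubby family, RPL18 a protein of the large ribosomal subunit, SPHK2 a kinase that makes sphingosine 1-phosphate, DBP a transcription factor with a daily rhythm, RASIP1 a Ras- and Rap1-binding protein of endothelial cells, and FUT1 a fucosyltransferase that makes the H antigen.

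The stretches before 3 of the genes are shown, since *Fam83e* and *Ntn5* were far lower in *Ccnyl1*-/- testes and *Spaca4*, which lies within the span of *Fam83e* on the other strand, was not. Each line is read along the gene's own strand toward its start, from RefSeq (GRCm38.p6), and ends before the gene. Capitals mark matches to 4 motifs searched on both strands, namely the TATA box TATAAA, the GC box GGGCGG, the E-box CACGTG and the core of the cAMP response element TGACGT, whose strands can overlap.
Fam83e (chr7:45720970-45721170, + strand): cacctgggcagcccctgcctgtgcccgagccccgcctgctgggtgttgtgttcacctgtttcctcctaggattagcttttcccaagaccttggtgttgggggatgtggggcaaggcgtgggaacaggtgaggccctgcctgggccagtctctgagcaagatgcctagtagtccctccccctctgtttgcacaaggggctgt
Ntn5 (chr7:45683772-45684021, + strand): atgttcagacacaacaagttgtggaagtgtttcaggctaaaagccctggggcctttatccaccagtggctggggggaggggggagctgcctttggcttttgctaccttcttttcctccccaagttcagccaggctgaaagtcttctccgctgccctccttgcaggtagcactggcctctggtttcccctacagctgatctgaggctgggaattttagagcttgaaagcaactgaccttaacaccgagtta
Spaca4 (chr7:45725817-45726066, - strand): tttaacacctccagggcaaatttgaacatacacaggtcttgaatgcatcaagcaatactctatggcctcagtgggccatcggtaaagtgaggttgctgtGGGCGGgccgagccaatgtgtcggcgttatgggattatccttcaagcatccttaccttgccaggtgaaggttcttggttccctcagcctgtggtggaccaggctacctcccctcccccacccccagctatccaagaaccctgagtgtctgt
The only match in these 3 stretches was a GC box before *Spaca4*. The stretch before *Spaca4* lies inside *Fam83e*, and that before *Ntn5* inside *Sec1*. In windows of 250 bases before each transcript start, all 10 genes had at least 1 window, 14 in all, of which 5 held a GC box, 1 (*Tulp2*) a TATA box, 1 (*Rpl18*) the cAMP response element core and 0 an E-box. Over the 32851 windows of all genes these shares were 32.7% for the GC box, 12.4% for the TATA box, 6.47% for the cAMP response element core and 6.02% for the E-box. The window of *Fam83e* was 61.2% G and C and that of *Ntn5* 52.8%, against a median of 52.4% over all windows. These matches are of letters only.

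The targeted gene was lower in both knockout animals. *Ccnyl1*, which lies on chromosome 1, had signals of 921 and 969 in *Ccnyl1*-/- testes and 2256 and 2425 in WT testes, so that 40.4% of the WT mean remained on its 1 probe set. No source used here places this probe set before or after the inserted LacZ sequence. The 4 arrays were compared in other respects as well. All had the same trimmed mean signal, which the scaling of each array to a common target fixes in advance. Tested probe sets had a median signal of 209 and 203 in *Ccnyl1*-/- and 199 and 197 in WT testes. Log2 signals of any pair correlated between 0.977 and 0.980 across probe sets. Marker genes of elongating spermatids summed to 303074 and 293504 in *Ccnyl1*-/- testes and 298498 and 306437 in WT testes. These sums overlapped between the genotypes, but a sum is weighted toward its brightest genes. Of the 12 genes summed, 9 had a lower mean log2 signal in *Ccnyl1*-/- than in WT testes, and 3 had a higher one.

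*Fam83e* had about the same proportion of its WT signal on both of its probe sets. On the brighter one the signals were 1597 and 1698 in the *Ccnyl1*-/- mice and 3315 and 3538 in the WT mice. The genotypes lay far apart, and the mice within each were close together. The means were 1648 ± 71.3 in *Ccnyl1*-/- and 3426 ± 157 in WT testes (SD, n = 2 each), and 48.1% of the WT signal remained. The log2 fold change was -1.05 (SE 0.08, 95% interval -1.23 to -0.87), computed as all those below on log2(signal + 16). On the dimmer probe set the *Ccnyl1*-/- mice had 342 and 431 and the WT mice 929.9 and 659. Here the WT mice differed widely from each other, yet the lower of them was above both *Ccnyl1*-/- mice. With means of 387 ± 63.2 and 794 ± 192 (SD, n = 2 each) in *Ccnyl1*-/- and WT testes, 48.7% remained, and the log2 fold change was -0.997 (95% interval -1.42 to -0.58). Probe sets of 1 gene read the same RNA of the same mice and are not replicates of each other. In whole testis, fewer cells that express a gene and less of its RNA per cell cannot be told apart.

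*Ntn5*, 4 genes away from *Fam83e* in the chromosome order, was also lower in the knockout. Its 1 probe set gave 328 and 242 in *Ccnyl1*-/- testes and 722 and 804 in WT testes. Both WT mice were above both *Ccnyl1*-/- mice by more than the mice of a genotype differed. The means of 285 ± 60.5 in *Ccnyl1*-/- and 763 ± 58.3 in WT testes (SD, n = 2 each) leave 37.4% of the WT signal, a log2 fold change of -1.38 (95% interval -1.76 to -1.01). That interval overlaps the interval of the brighter *Fam83e* probe set. In the RefSeq table *Ntn5* overlaps *Sec1*, a gene of the other strand that is related to the fucosyltransferases. The brighter of the 2 *Sec1* probe sets gave 512.2 and 478 in *Ccnyl1*-/- and 646 and 701 in WT testes (log2 fold change -0.43), while on the other one, with a log2 fold change of -0.09, the genotypes overlapped. The place of the *Ntn5* probes within this overlap was not examined.

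*Bcat2*, 12 genes away from *Fam83e*, differed the other way. Its probe set gave 269.7 and 188 in *Ccnyl1*-/- testes and 83.1 and 88.9 in WT testes. The WT mice were nearly equal, and the *Ccnyl1*-/- mice were both higher but apart from each other. The means were 229 ± 58.0 and 86.0 ± 4.12 (SD, n = 2 each) in *Ccnyl1*-/- and WT testes, a log2 fold change of 1.24 (95% interval 0.72 to 1.77). At this low signal the size depends on the scale, and it was 0.88 with all signals divided down to the trimmed mean of 100 that the methods state.

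**Figure D1:**
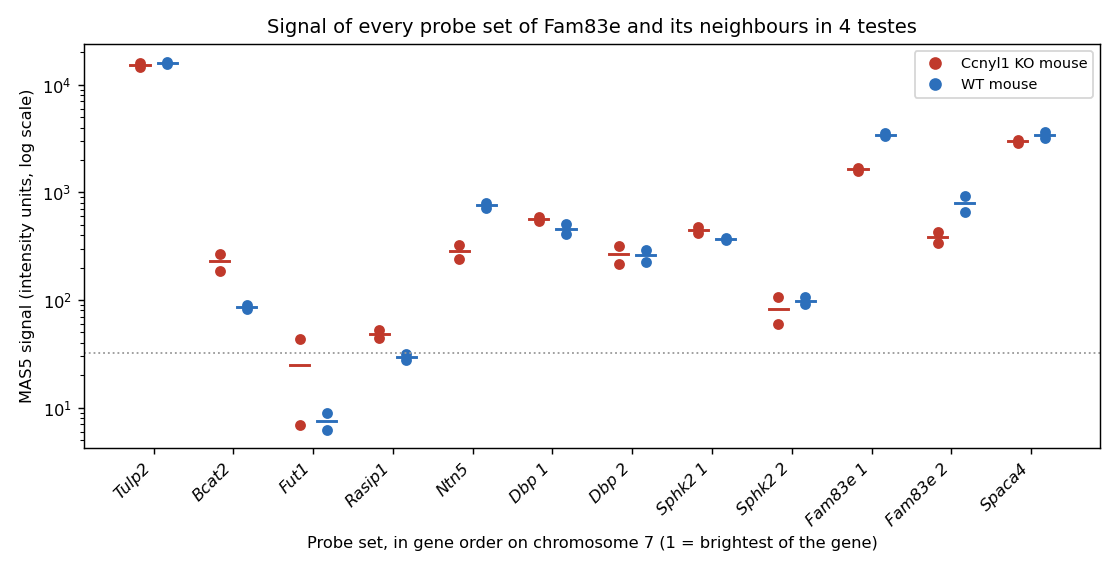
MAS5 signal (intensity units, log scale) of the 12 probe sets of 9 listed genes, with 1 point per mouse, a line at the mean of 2 mice, *Ccnyl1*-/- at the left of each pair and WT at the right, and a dotted line at the minimum signal of 32. The genotypes lie far apart for *Fam83e*, *Ntn5* and *Bcat2*, and the heights of different probe sets cannot be compared with each other.

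*Spaca4* and *Tulp2*, the genes of the list with roles in sperm, stayed near their WT signals. *Spaca4* had 3101 and 2855 in *Ccnyl1*-/- testes and 3625 and 3208 in WT testes. The genotypes did not overlap, but the gap between them was smaller than the distance between the WT mice. Its log2 fold change was -0.20 (95% interval -0.39 to -0.0042), and it kept 87.2% of the WT signal. The share kept by *Fam83e* was lower. *Spaca4* lies within the span of *Fam83e* on the other strand, and the place of the probes of either gene within this overlap was not examined. *Tulp2* had 14709.7 and 15943 in *Ccnyl1*-/- testes and 15659 and 16157 in WT testes. These values overlap, and the log2 fold change of -0.05 had an interval from -0.17 to 0.06, which holds 0.

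*Sphk2* and *Dbp*, which overlap each other in the table, had 2 probe sets each, and in both genes the brighter one was somewhat higher in the knockout while the dimmer one was not. The brighter probe set of *Sphk2* gave 480.0 and 417 in *Ccnyl1*-/- and 365 and 375 in WT testes (log2 fold change 0.27, 95% interval -0.05 to 0.58). The dimmer one gave 106 and 60.1 in *Ccnyl1*-/- and 106 and 91.6 in WT testes (-0.25, interval -0.93 to 0.44). The probe sets of *Sphk2* thus differed in sign, and the intervals of both hold 0. For *Dbp* the brighter probe set gave 585 and 539 in *Ccnyl1*-/- and 407 and 508 in WT testes (0.29, interval -0.04 to 0.62). The dimmer one gave 319.8 and 216 in *Ccnyl1*-/- and 226 and 294 in WT testes (0.03, interval -0.47 to 0.52). Within each genotype these last values were far apart, and the genotypes overlapped.

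*Rasip1* and *Fut1* were dim. *Rasip1* had 52.1 and 44.4 in *Ccnyl1*-/- testes and 31.3 and 28.0 in WT testes, a log2 fold change of 0.49 with an interval from -0.40 to 1.39. All 4 values lie near the minimum signal, where the offset of 16 sets much of the size, and the log2 fold change was 0.70 with no offset. Of 10 endothelial marker genes, the cell type that *Rasip1* belongs to, 9 were tested, 4 with a positive and 5 with a negative log2 fold change. Their signals summed to 1147 and 1212 in *Ccnyl1*-/- and 1182 and 1199 in WT testes. *Pecam1*, the endothelial marker farthest from 0, had a log2 fold change of 0.71. The part of endothelial cells in the *Rasip1* values was not tested. *Fut1* had 6.88 and 43.1 in *Ccnyl1*-/- and 8.95 and 6.24 in WT testes, so that 1 *Ccnyl1*-/- mouse stood above the other 3 animals. No fold change is drawn from signals this low. *Rpl18* has no value here, since no probe set of the annotation carries its name alone.

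Along the chromosome the differences did not follow the gene order. From *Tulp2* to *Spaca4* the RefSeq table holds 20 protein-coding genes, and with 5 genes on each side the stretch has 20 genes outside the list, of which 15 (22 probe sets) were tested. Between *Ntn5* and *Fam83e* lie *Car11*, *Dbp*, *Sphk2* and *Rpl18*. *Car11*, which encodes a carbonic anhydrase-related protein, had a log2 fold change of -0.02 (95% interval -0.72 to 0.67), and none of the tested probe sets of *Dbp* and *Sphk2* was as low as those of *Fam83e* and *Ntn5*. *Cyth2*, on the far side of *Spaca4*, had 0.01 (interval -0.15 to 0.17), and *Izumo1*, which encodes the sperm protein that binds the egg, 0.04 (interval -0.12 to 0.20). The 22 tested unlisted probe sets ran from -0.43 (*Sec1*) to 0.92 (*Hsd17b14*, dim, with overlapping genotypes). The dimmer one of *Mamstr*, between *Rasip1* and *Fut2* in the order, had 51.9 and 41.9 in *Ccnyl1*-/- and 15.6 and 24.2 in WT testes. Those genotypes did not overlap, at a log2 fold change of 0.81 (95% interval -0.20 to 1.83), but the brighter *Mamstr* probe set had 0.03 with overlap. The 7 unlisted probe sets under the minimum signal were not tested. Among them, the dimmer one of *Gys1*, which encodes muscle glycogen synthase, had 7.6 and 5.01 in *Ccnyl1*-/- and 38.0 and 37.8 in WT testes. The genotypes did not overlap there, but the brighter *Gys1* probe set had 0.19 with overlapping genotypes. *Sult2b1* (13.4 and 49.9 in *Ccnyl1*-/-, 9.62 and 2.98 in WT testes) was higher without overlap. So was the dimmer one of *Fut2* (20.2 and 4.90 in *Ccnyl1*-/-, 3.78 and 4.44 in WT testes), and the rest overlapped. The brightest probe sets of *Plekha4*, the gene of a phosphoinositide-binding protein, had 0.37 and 0.35, while its 2 dimmer ones had -0.10 and -0.07.

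**Figure D2:**
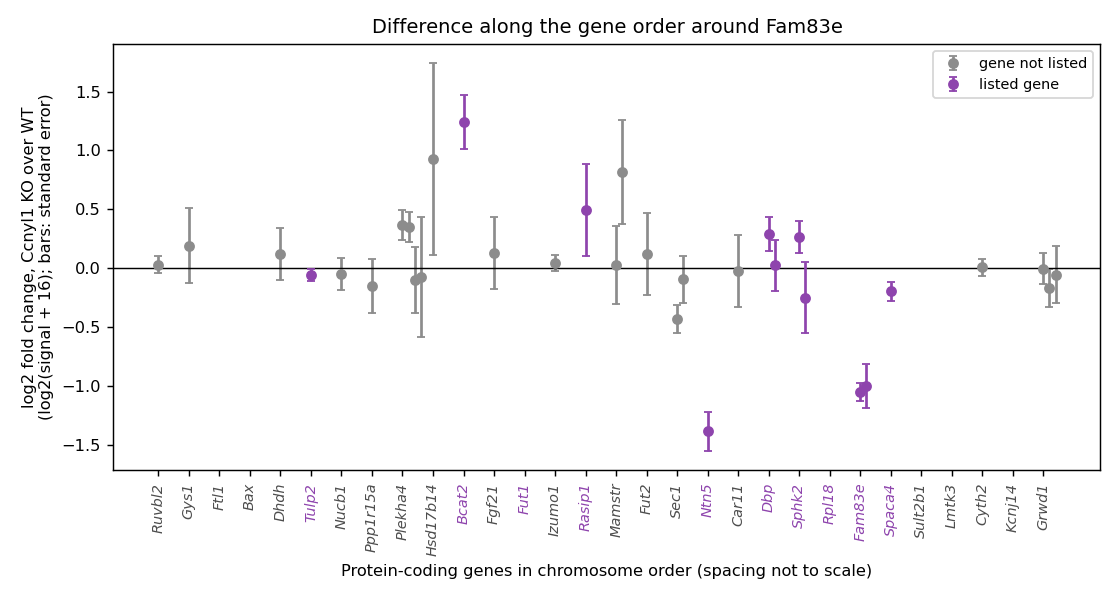
Log2 fold change between *Ccnyl1*-/- and WT testes (the knockout over WT), with the standard error as a bar, for every tested probe set of 30 protein-coding genes in chromosome order, the listed genes in purple and the others in grey, and no point for a gene without a tested probe set. *Fam83e* and *Ntn5* lie near or below -1 and *Bcat2* above 1. Between them lie genes near 0, but also the dimmer *Mamstr* probe set at 0.81 and the brighter *Sec1* one at -0.43.

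In the fit across all 32438 tested probe sets, limma called 1 of the 11 probe sets of the listed genes at an adjusted p under 0.05, the brighter one of *Fam83e*, and the called share over all probe sets was 0.0123%, with 4 called lower. That call is what *Fam83e* was chosen by, so nothing is read from it. It was the last inside the threshold (adjusted p = 0.00503 from limma), and the next probe set with 1 gene outside it was that of *Ntn5* (adjusted p = 0.118 from limma). Without WT replicate 1, where the spread comes from the *Ccnyl1*-/- mice alone and the lone WT mouse is assumed to vary like them, *Ntn5* had an adjusted p of 0.00977 from limma, and without the trend of the variance 0.84, as the brighter *Fam83e* probe set then had 0.752. *Bcat2* and the dimmer *Fam83e* probe set had an adjusted p of 0.512 each from limma. The genotypes did not overlap, with *Ccnyl1*-/- lower, at 4 of the 11 (both of *Fam83e*, *Ntn5* and *Spaca4*), against 15.3% of all tested probe sets, and with *Ccnyl1*-/- higher at 4 of the 11 (*Bcat2*, *Rasip1* and the brighter ones of *Dbp* and *Sphk2*), against 20.6%. With a difference of at least 2-fold on the log2(signal + 16) scale as well, 2 were lower (the brighter one of *Fam83e*, and *Ntn5*), against 0.478% of all (the dimmer *Fam83e* probe set, at -0.997, lay just outside this limit, and had -1.03 with no offset), and 1 was higher (*Bcat2*), against 0.74%. The genes were listed with these values known, and the counts are a description. Among the 22 unlisted probe sets of the stretch, 1 was lower without overlap and at an unadjusted p under 0.05 (the brighter one of *Sec1*), where 2.59% of all probe sets were, and 2 were higher (the brightest of *Plekha4*), where 3.47% were. With arrays scaled to one median, 688 of all probe sets were higher and 1528 lower at that p, against 1125 higher and 839 lower as deposited. None of the 22 was called by limma.

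**Figure D3:**
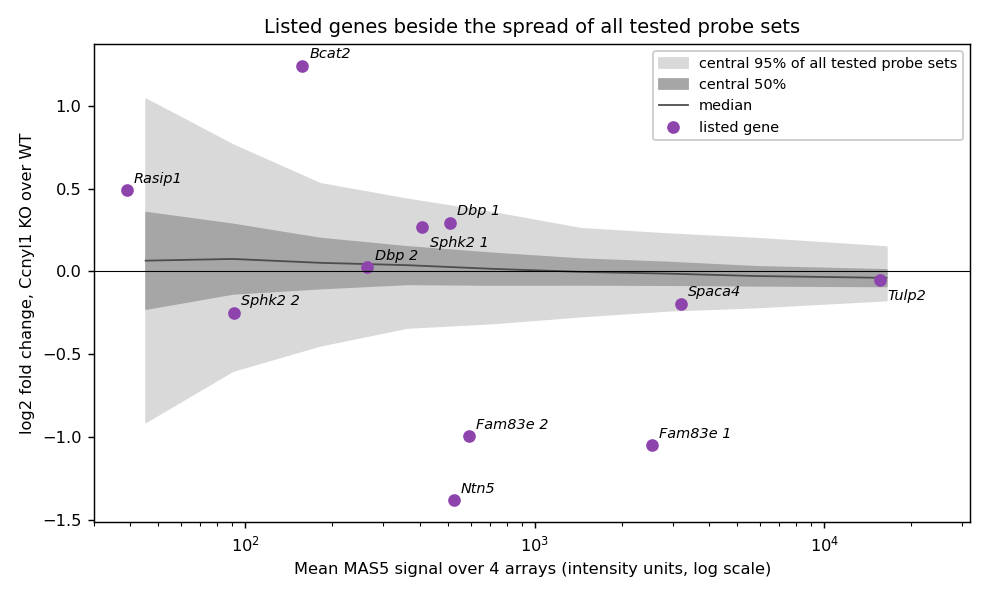
Log2 fold change between *Ccnyl1*-/- and WT testes (the knockout over WT), plotted by mean MAS5 signal of 4 arrays (log scale), for the 11 tested probe sets of the listed genes, beside the median, the central 50% and the central 95% of all tested probe sets of like brightness. Both *Fam83e* probe sets, *Ntn5* and *Bcat2* lie outside the central 95%, and the others inside it.

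The spread of all probe sets narrows with brightness, which sets the scale for these values. Probe sets were put in classes that each span a doubling of the mean signal. In the class of the brighter *Fam83e* probe set and of *Spaca4* (1764 probe sets), the central 95% of log2 fold changes lay between -0.24 and 0.23. In the class of *Ntn5* and the dimmer *Fam83e* probe set (3601 probe sets) it lay between -0.31 and 0.35, and in that of *Bcat2* (5195 probe sets) between -0.45 and 0.53.

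The signal pattern of the brighter *Fam83e* probe set over the 4 arrays was set against that of every other tested probe set with 1 gene, as the root mean square distance of log2(signal + 16) after subtracting the WT mean. The nearest were *Ptpn6* (0.08), *Ppp1r13l* (0.08), *Paqr5* (0.09), *Car9* (0.11) and *Evc* (0.12), each dim, with mean signals from 32.4 to 102. The dimmer *Fam83e* probe set was the 40th nearest (0.22) and *Ntn5* the 112th (0.297). The order rests on 4 arrays and says nothing of shared function.

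Genes that share a pathway or family with the listed ones were described by the brightest probe set of each, beside a median log2 fold change of -0.00036 over the 15268 genes tested. *Fam83e* was the only one called by limma in its own family, of which 4 genes were tested. *Fam83g* had -0.51 and *Fam83d* 0.24, and none of the 6 casein kinase 1 genes was called (*Csnk1g3* 0.37, *Csnk1g1* -0.33). Among 9 tested genes of netrins and their receptors, none was called, 3 were positive and 6 negative (median -0.23), with *Ntn5* lowest. *Unc5b*, a dim netrin receptor gene, had 0.87. Of 14 tested genes of the breakdown of branched-chain amino acids none was called and the median was -0.01. *Bcat2* was the farthest from 0, and *Acadsb*, a later dehydrogenase of the pathway, had -0.25. The genes of the branched-chain dehydrogenase complex itself lay near 0 (*Bckdha* -0.0037, *Bckdhb* -0.09, *Dbt* -0.02, *Dld* 0.04), and *Bcat1*, the cytosolic aminotransferase gene, was under the minimum signal.
For the acrosomal membrane proteins with *Spaca4*, none of 13 tested genes was called (median 0.0011, from -0.20 for *Spaca4* to 0.25 for *Izumo4*). The 3 tested genes of the Tubby family were all negative, with *Tulp3* at -0.28, and none was called. Of 17 tested genes of the circadian clock and its PAR bZIP factors, the group of *Dbp*, 12 were positive and 5 negative (median 0.04). *Nr1d1*, which encodes the repressor REV-ERBα, had 0.54, *Bhlhe40* 0.43, and none was called. Of 14 tested genes of sphingosine 1-phosphate metabolism and its receptors none was called (median 0.07, *S1pr4* 0.96 and *S1pr1* -0.45, both dim). Nor was any of 10 around Rap1 and *Rasip1* (median 0.17, with *Rasip1* farthest and *Krit1* at 0.29) or of 8 fucosyltransferases (median -0.03, *Sec1* -0.43, *Fut4*, dim, -0.32). None of 21 large-subunit ribosomal protein genes was called (median -0.0016, *Rpl14* 0.33, *Rpl12* 0.22). The *Rpl14* and *Rpl12* probe sets had mean signals of only 38.2 and 160, and the genotypes overlapped for *Rpl14*. Each of these medians includes the listed gene where it was tested. The median over all tested probe sets was 0.02, and -0.03 with arrays scaled to one median, so a list median within that range of 0 has no settled sign.

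Marker genes of the cell types of the testis and its surroundings were read beside the listed genes, and no marker of the 11 lists was called by limma. Medians ran from -0.11 for blood and for macrophages, where 9 of 10 tested genes were negative (*Lyz2* -0.60, *Cd14* -0.52), to 0.28 for Leydig cells, where 5 of 6 were positive (*Star* 0.57, *Cyp17a1* 0.51). Spermatogonia had -0.02 (*Ret* -0.47, *Lin28a* 0.39), spermatocytes 8.1e-05 (*Dmc1* -0.64, *Spo11* 0.23), round spermatids 0.0033 (*Dpy19l2* 0.20, *Spag6* 0.18), elongating spermatids -0.06 (*Fscn3* -0.21, *Smcp* 0.18), Sertoli cells 0.13 (*Amh* -0.82, *Fshr* 0.64), peritubular myoid cells 0.06 (*Des* 0.87, *Cnn1* 0.23) and endothelium -0.04 (*Pecam1* 0.71, *Kdr* -0.18). For elongating spermatids, 9 of 12 tested genes were negative and 3 positive. Of 10 epididymal markers with a probe set, 5 lay under the minimum signal, and of 3 for blood 1 did. Among the tested ones, the epididymal *Lcn8* had 1.06 and *Gpx5* 0.61, both dim. For blood, *Slc4a1* had -0.12 and *Alas2* -0.11. Leydig sums were 14155 and 10193 in *Ccnyl1*-/- and 11910 and 8431 in WT testes. Macrophage sums were 13853 and 15428 in *Ccnyl1*-/- and 15783 and 15223 in WT testes. Most of each macrophage sum came from *Aif1* (10647 and 12693 in *Ccnyl1*-/-, 11781 and 12163 in WT testes), so the sums mainly follow that gene. The part of Leydig cells or macrophages in the values of *Fam83e*, *Ntn5* and *Bcat2* was not tested.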

How the data were processed

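Testis RNA of 2 *Ccnyl1*-/- and 2 WT mice was hybridised to 1 Affymetrix array each. The authors deposited MAS5 signals (the tool named in the submitters' notes), intensities on a linear scale that are scaled array by array, so probe effects stay in the values. The methods state a target of 100, whereas the deposited columns have a trimmed mean of 500.0 (2% left out at each end). Of 45101 probe sets, 64 controls were left out. Genes were taken from the platform annotation where a probe set has 1 symbol, and gene order, overlaps and promoters from RefSeq (GRCm38.p6), without positions other than those of printed sequences.

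Log2(signal + 16) was fitted in R 4.3.3 with limma 3.58.1 (lmFit, eBayes, trend = TRUE) on genotype alone, over 32438 probe sets with a mean signal of at least 32, with Benjamini-Hochberg adjustment and a threshold of 0.05. The fit was also run on simulated data whose variances were drawn from its own fitted trend, so that run could not test the trend. Listed genes, gene lists and rules were chosen with earlier results of these data known. All probe sets of the listed genes are given, with *Ccnyl1*, the unlisted genes of the stretch past an unadjusted p of 0.05 without overlap, the 2 members of each list farthest from 0, and the 5 nearest patterns. *Car11*, *Cyth2*, *Izumo1*, *Hsd17b14*, *Mamstr*, *Gys1*, *Sult2b1*, *Fut2*, *Fam83d*, *Aif1* and genes of the dehydrogenase complex were added after their values were seen. The labels call the samples of a genotype biological replicates, and each was taken as 1 mouse. Alternatives were no offset, an offset of 32, scaling to one median, quantile normalization, rescaling to 100, the replicate number as a block, other minimum signals, other variance models, the methods' t-test, probe sets by suffix, and leaving out each mouse.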

Additional observations from a re-analysis of the deposited data

How the results depend on the processing

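The log2 fold changes of both *Fam83e* probe sets, *Ntn5*, *Bcat2*, *Spaca4*, *Rasip1* and the brighter probe sets of *Dbp* and *Sphk2* kept their sign under the 10 alternatives run on these values. Without 1 mouse, the brighter *Fam83e* probe set ran from -1.096 to -1.002, the dimmer from -1.24 to -0.75, *Ntn5* from -1.59 to -1.18 and *Bcat2* from 0.998 to 1.49. The signs of *Tulp2*, *Fut1* and the dimmer probe sets of *Dbp* and *Sphk2* turned under at least 1 alternative. *Rasip1* had 0.23 with signals rescaled to 100 and 0.38 with an offset of 32.

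The count of called probe sets (4 lower, 0 higher by limma, 839 and 1125 before adjustment at p under 0.05) was 10 lower and 4 higher with the replicate block, *Ntn5* among them (adjusted p = 0.0193 from limma). The labels do not say that a number marks a litter or day, and the samples were taken to share only a number. Deviations of same-numbered mice correlated at 0.01 across tested probe sets and at 0.09 across those with a mean signal of at least 100. A correlation over so many probe sets cannot decide whether some genes follow the number. Leydig sums were higher in replicate 1 (14155 in *Ccnyl1*-/-, 11910 in WT testes) than in replicate 2 (10193 and 8431) of both genotypes. Leaving out 1 mouse leaves its genotype with a lone mouse, assumed to vary like the 2 of the other genotype, from which alone the spread comes. The counts then ran from 5 to 31 lower and from 1 to 28 higher. *Ntn5* was called without WT replicate 1 (adjusted p = 0.00977), WT replicate 2 (0.0248) or *Ccnyl1*-/- replicate 1 (0.0201), but not without *Ccnyl1*-/- replicate 2 (0.0797, all from limma), and the dimmer *Fam83e* probe set without WT replicate 2 (0.0157). The other alternatives gave *Ntn5* adjusted p-values from 0.0517 with robust eBayes to 0.84 without the trend. Without the trend 0 probe sets were called by limma (627 lower, 1279 higher before adjustment), and the methods' t-test called 0 after adjustment (793 lower, 1107 higher before it), so the call of *Fam83e* rests on the trend. Dim probe sets, *Rasip1* and *Fut1* above all, are limited by signal over background.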
